A study of Nicotiana tabacum with 6 samples.

Results

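The array held 321 probes whose sequence identifier is AB followed by 6 digits, out of 43759 probes for tobacco in all, and they belonged to 263 different identifiers. The rule for membership is this form of the identifier, and it uses no measured value. The cells were a suspension culture of SL, a wild-type line of tobacco (Nicotiana tabacum). Aluminium-treated cells received 100 µM aluminium chloride for 18 h (n = 3), and control cells spent the same 18 h with 0 µM (n = 3). Both groups were kept at pH 5.0 in a simple medium with calcium chloride (3 mM), sucrose (3%) and MES (20 mM), so that both groups shared the medium. One single-colour array was used per sample. The labels speak of replicates but name no separate cultures, and p-values therefore reflect only how far these samples differ among themselves, a spread that may be technical.

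Aluminium is a metal whose ion becomes soluble and toxic to plants in acid media. It is known to bind to cell walls and membranes and to stop growth, and cultured tobacco cells are a common model for these effects. Identifiers with the prefix AB are sequence records submitted directly to the Japanese member of the public nucleotide archives, as a rule as separate, named cDNA or gene sequences and not as bulk expressed sequence tags. None of the 263 identifiers appears in the RefSeq gene table for tobacco (79372 genes), so every transcript is given by its identifier and probe name, with no gene name or role. Identifiers and not sequences were compared, so it is not known whether those genes include the transcripts. Tobacco is an allotetraploid, and a probe can collect signal from near-identical transcripts of both parental genomes. With no gene names, the identity of the cells could not be checked against marker genes.

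The 75th-percentile signal lay between 1180 and 3224 on the 6 arrays, with both arrays of replicate 3 at the low end. Each slide carried the aluminium array in position 2 and the control array in position 1 of 1 replicate number, so treatment and the position on the slide cannot be told apart. Slide 3 was scanned on a different day from slides 1 and 2. No tobacco spot was saturated, and no AB spot was flagged as an outlier. Levels are log2 processed signals from which the 75th percentile of the array was subtracted, so that a level of 0 stands for that percentile. Signals of different probes also depend on the probe, so levels are compared between samples and not between transcripts.

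AB transcripts were widely detected in these cells. On all 6 arrays, 268 of the 321 probes (83.5%) stood well above background, against 60.6% of all tobacco probes. A further 21 were so on all 3 arrays of 1 group and on fewer of the other, 17 of them on all aluminium arrays and 4 on all control arrays. These 289 probes (90.0%, against 66.0% of all tobacco probes), from 238 identifiers, passed the filter and were tested. Among the 32 that did not pass, 19 were well above background on no array (5.92% of AB probes, against 20.0% of all) and 13 on some. Around the filter the ranges met. The 21 probes just inside had mean levels from -6.60 to -3.99, and the 13 just outside had mean levels from -8.51 to -4.97. Per array, between 288 and 294 AB probes were well above background with aluminium, and between 272 and 296 in control cells. The control array of replicate 3 had the fewest.

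Aluminium was accompanied by changes in both directions among the AB transcripts. Of the 289 tested probes, 165 (57.1%) differed between the groups at an adjusted p under 0.05, while 42.5% of all tested probes did so. There were 77 higher with aluminium (26.6%, against 22.4% of all tested probes) and 88 lower (30.4%, against 20.2%). A change of at least 2-fold was called for 80 probes (16.4% of all tested probes reached this), of which 41 were higher and 39 lower, where all tested probes had 8.71% and 7.65%. At 4-fold or more, 13 were higher (2.51% of all) and 16 lower (2.10%), and at 8-fold or more 6 were higher (0.918%) and 9 lower (0.735%). These counts include probes near background in 1 group, which could pass the filter through the group where they were high. With only the 268 probes well above background on all 6 arrays, the fit called 34 higher and 36 lower at 2-fold, and 3 higher and 8 lower at 8-fold. Among all 26525 probes of that fit, 2055 were higher and 1991 lower at 2-fold, and 152 and 147 at 8-fold. With normexp correction 1 of the 289 was higher at 8-fold and 5 were lower, and among all 28861 tested probes 106 were higher and 79 lower. The called changes of at least 2-fold fell on 31 identifiers that were higher and 30 that were lower. The adjusted p-values here and below come from limma with Benjamini-Hochberg adjustment over all 28861 tested probes, two-sided. With arrays scaled by their spike-in controls and the replicate number as a block, the 2-fold calls were 35 higher and 53 lower. Among all 28861 tested probes, that fit called 2137 higher and 2910 lower at 2-fold.

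**Figure D1:**
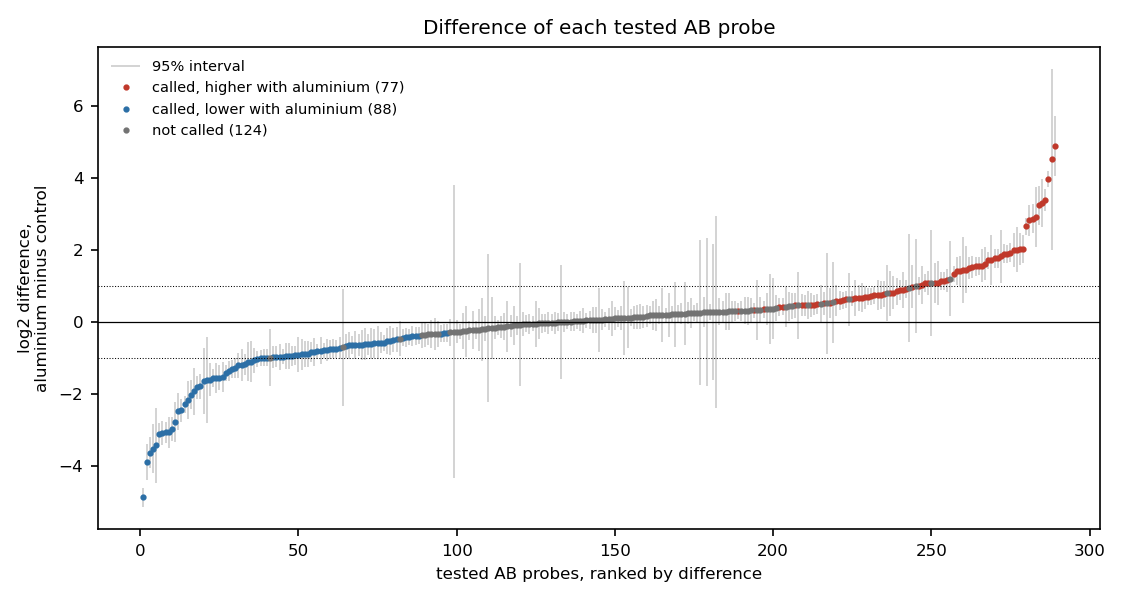
Log2 difference, aluminium minus control, of each of the 289 tested AB probes in rank order, with its 95% interval as a grey line. Red points are the 77 called higher, blue points the 88 called lower and grey points the 124 not called, and dotted lines mark 2-fold. The differences run from -4.88 to 4.87.

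Over the 289 probes the median log2 difference was 0.05, with quartiles of -0.61 and 0.51, and over all tested probes it was 0.07, with quartiles of -0.35 and 0.45. The median size of a difference, regardless of direction, was 0.59 for AB probes and 0.41 for all. The aluminium and control arrays did not overlap in 193 AB probes (66.8%, against 54.6% of all tested probes). On all 3 slides 246 of the 289 changed in the same direction (85.1%, against 81.2%). Across AB probes, the differences on slide 1 correlated with those on slide 2 at r = 0.975 and with those on slide 3 at r = 0.962. Slides 2 and 3 gave r = 0.956. Across all tested probes the same r were 0.943, 0.928 and 0.909, and across probes with AF, AY or DQ identifiers 0.973, 0.952 and 0.968. These are descriptions across probes, which are not independent replicates.

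Among the AB probes well above background on all 6 arrays, that of AB127582 rose most. This probe, A_95_P181542, had levels of 6.66, 6.67 and 6.70 in aluminium-treated cells, against 2.80, 2.70 and 2.67 in control cells. All 3 aluminium arrays thus lay far above all control arrays. This is a 15.5-fold rise, 3.96 ± 0.089 (SE) on the log2 scale (limma adjusted p = 1.97e-05). With aluminium this probe was in the brightest part of the array, and over both groups it ranked at the 98.9th percentile of all probes by mean level. AB210290 also rose. Its probe A_95_P032556 read 4.87, 4.82 and 4.68 with aluminium and 2.06, 2.19 and 2.18 in control cells, 6.26-fold higher (limma adjusted p = 4.14e-05).

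Several dimmer AB transcripts rose by a comparable factor. AB125233 and AB125232 carry successive numbers and changed almost alike. AB125233 (A_95_P011252) was at -1.79, -2.26 and -1.81 with aluminium, against -4.83, -5.10 and -5.79 in control cells. AB125232 (A_95_P032526) was at -2.50, -2.91 and -2.42 with aluminium, against -5.56, -5.72 and -6.24 in control cells. The groups did not overlap in either, and the log2 differences were 3.29 ± 0.28 and 3.23 ± 0.22 (SE), with limma adjusted p of 0.000309 and 0.000153. AB174847 (A_95_P240449) had -2.18, -1.09 and -1.93 with aluminium and -4.95, -4.14 and -4.82 in control cells. Its replicate 2 was the highest array in both groups, and the 2.90 difference (limma adjusted p = 0.00116) was close to the per-slide values of 2.77, 3.05 and 2.89. The control levels of these 3 transcripts were low, though well above background on all 3 arrays. With normexp background correction, which adds an offset and so pulls dim probes together, the log2 differences were 2.24 for AB125233, 2.02 for AB125232 and 2.21 for AB174847.

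AB012857 was measured by a pair of probes that both rose. A_95_P227954 had levels of 0.15, 0.29 and 0.49 with aluminium, against -2.47, -2.34 and -2.85 in control cells. A_95_P007551 had 0.74, 0.89 and 1.28 with aluminium, against -1.96, -1.62 and -1.95 in control cells. The rises were 7.27-fold and 7.02-fold, and the probes differed from each other by less than their standard errors of 0.17 and 0.18 on the log2 scale. With the same limit to probes detected on every array, the others of the 12 highest were AB014484 (4.07-fold), AB072918 (4.03-fold), AB032533 (4.01-fold), AB265223 (3.78-fold) and AB041514 (3.72-fold), with limma adjusted p between 7.54e-05 and 0.00166. Of these, AB072918 (A_95_P027246) was at 6.45, 6.06 and 6.39 with aluminium against 4.12, 4.14 and 4.61 in control cells.

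The largest fall was in AB044154. Its probe A_95_P188977 was at -3.78, -3.63 and -3.52 in aluminium-treated cells, against 1.27, 1.30 and 1.13 in control cells. Every aluminium array was thus far below the 75th percentile, and every control array above it. The log2 difference was -4.88 ± 0.11 (SE), 29.4-fold lower, with a limma adjusted p of 1.98e-05. The record with the preceding number, AB044153, was represented by 4 probes, all among the 12 lowest of the AB probes detected on every array. One of them, A_95_P016471, had levels of 2.34, 2.47 and 2.76 with aluminium, against 5.61, 5.55 and 5.67 in control cells. The 4 probes fell by 7.88-fold to 8.65-fold (limma adjusted p between 4.22e-05 and 5.52e-05), and their log2 differences spanned only 0.13.

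AB041516 was bright in control cells and fell with aluminium. Its probe A_95_P238389 had 2.64, 2.69 and 3.02 with aluminium, against 5.68, 5.73 and 6.15 in control cells, 8.39-fold lower (limma adjusted p = 8.67e-05). The per-slide differences of -3.03, -3.05 and -3.13 were nearly equal. AB107689 (A_95_P032471) was at -5.26, -4.33 and -5.12 with aluminium, against -1.62, -1.10 and -1.42 in control cells, a change of -3.52 ± 0.28 on the log2 scale (SE; adjusted p from limma 0.000239). AB017502 (A_95_P250387) had 0.87, 1.01 and 1.25 with aluminium, against 3.42, 3.49 and 3.61 in control cells, 5.51-fold lower. AB035125 and AB289450 completed the 12 lowest beside AB176524, at 5.63-fold and 6.92-fold lower, with limma adjusted p of 0.000317 and 0.000274. In all of these the aluminium and control arrays did not overlap. With aluminium, AB107689 and AB289450 were dim, and normexp correction gave log2 differences of -2.73 and -1.83 for them, against -3.52 and -2.79.

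**Figure D2:**
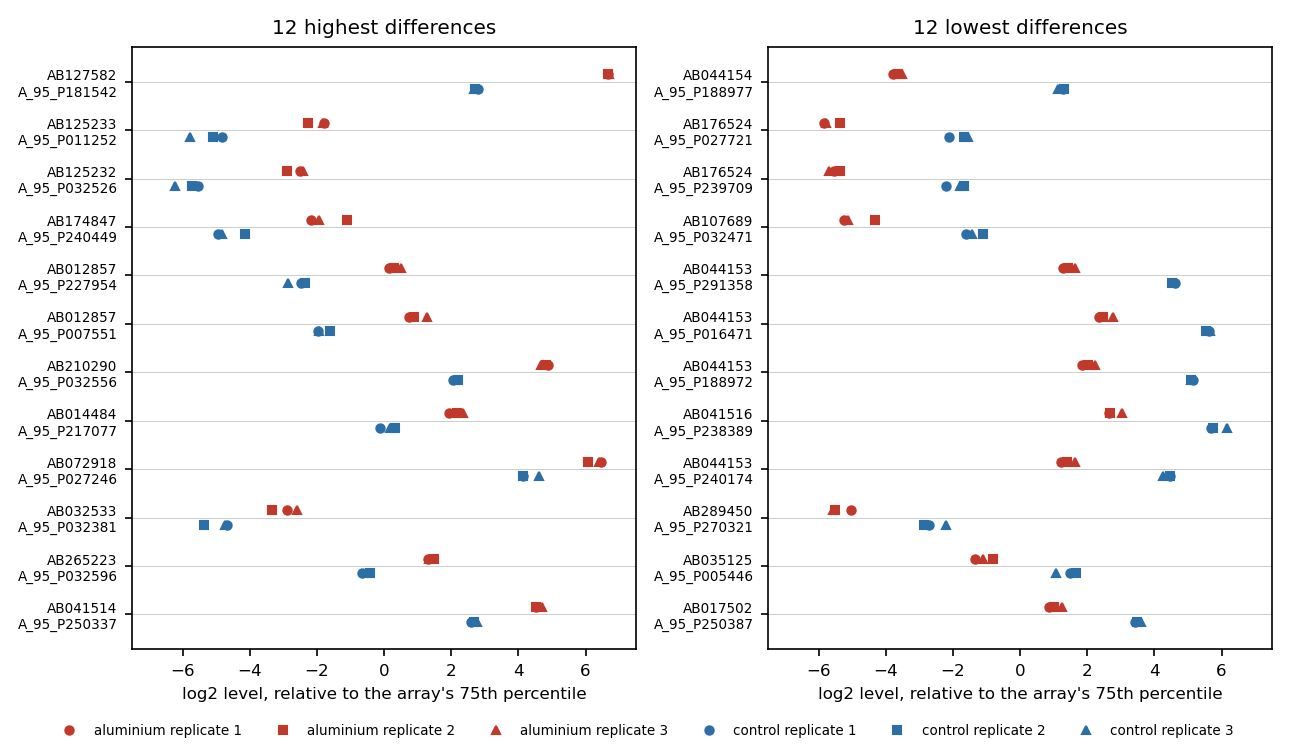
Log2 level relative to the array's 75th percentile in each of the 6 samples, for the 12 highest (left) and 12 lowest (right) differences among called AB probes that were well above background on all 6 arrays. Red symbols are aluminium and blue symbols control, with circles, squares and triangles for replicates 1, 2 and 3. The 2 groups are apart in every row, and the 4 AB044153 probes shift by nearly the same amount.

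Some AB transcripts were near or below background in 1 group, and their folds are less certain. A_95_P238884, a probe of AB032529, was the single AB probe well above background on all 3 arrays of 1 group and on none of the other (0.407% of all probes were so on the aluminium side and 0.153% on the control side). It had -4.82, -4.47 and -4.51 with aluminium and -8.08, -7.94 and -7.91 in control cells, where it was not well above background. With each control array taken at its lowest well-above-background signal, the probe was at least 4.83-fold higher with aluminium. The measured log2 difference of 3.38 uses the control values below that limit. The other probe of AB032529, A_95_P147922, was well above background on 2 of the 3 control arrays and its measured difference was 3.96-fold. Both probes passed the filter through the aluminium arrays alone, so their common direction was fixed in part by the filter, and no p is given for them. The normexp log2 differences were 1.15 and 0.99.

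The following 3 probes, chosen after their values were seen, also changed at least 8-fold but were not well above background on all 6 arrays. Each passed the filter only through the group where it was high, so its measured difference is a description read partly against background, and no p is given for it. AB028650 (A_95_P032377) was at -2.21, -2.13 and -1.27 with aluminium, against -7.31, -6.50 and -6.43 in control cells, of which 1 of 3 arrays was well above background. The measured log2 difference was 4.87, and it was 2.94 with normexp correction. Under that correction AB127582 had the higher difference. AB052557 (A_95_P239644) was at -1.70, -0.54 and -2.98 with aluminium, against -6.00, -4.54 and -8.20 in control cells, of which 2 of 3 arrays were well above background. It varied widely between replicates, and the measured differences on slides 1, 2 and 3 were 4.31, 3.99 and 5.22. Its call was lost without aluminium replicate 1, and normexp correction gave a log2 difference of 2.59. AB243208 (A_95_P020846) was at -8.26, -7.40 and -6.54 with aluminium, of which 1 of 3 arrays was well above background, against -4.25, -3.90 and -3.74 in control cells. Its measured log2 difference was -3.43, and -1.34 with normexp correction.

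The 5 AB probes with the highest mean signal over both groups belonged to AB052822, AB018441, AB281271 and AB015760. This choice describes probe signals and not abundance, and it passes over probes that are bright in 1 group, such as that of AB127582 with aluminium. AB052822 was measured by a pair of probes. A_95_P009281 had levels of 6.88, 6.89 and 7.05 with aluminium, against 7.29, 7.29 and 7.39 in control cells, and A_95_P257911 had 6.73, 6.81 and 6.89, against 7.20, 7.29 and 7.22. Both probes fell, by 1.31-fold and 1.35-fold (limma adjusted p = 0.0217 and 0.0126). AB018441 (A_95_P008351) was 1.37-fold higher (limma adjusted p = 0.0226) and AB015760 (A_95_P016831) 1.58-fold higher (limma adjusted p = 0.0138). These 4 calls were lost under median scaling. That of A_95_P009281 was also lost when any array other than aluminium replicate 3 was left out (log2 difference -0.44 to -0.35), and that of A_95_P257911 without aluminium replicate 1. The call of AB018441 was lost without aluminium replicate 1 or 2 or control replicate 1 or 3 (0.40 to 0.56), and that of AB015760 without aluminium replicate 1 (0.57 to 0.78 over all 6 omissions). AB281271 had 3 probes, which rose 3.39-fold, 3.40-fold and 3.70-fold. The one among the 5, A_95_P163012, read 7.09, 6.84 and 7.10 with aluminium, against 5.27, 5.20 and 5.26 in control cells (limma adjusted p = 0.000108).

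Summed over all 321 probes, the AB transcripts made up 2.46%, 2.43% and 2.38% of the summed signal of the 3 aluminium arrays, against 2.31%, 2.34% and 2.30% for the 3 control arrays. The means were 2.42% ± 0.041 with aluminium and 2.32% ± 0.024 in control cells (SD, n = 3 each). Every aluminium array lay above every control array, and the exact permutation p (two-sided) was 0.1, which is as low as 3 against 3 samples can go. A summed signal is weighted towards bright probes. The median level of the tested AB probes had a mean of 0.002 over the aluminium arrays and 0.033 over the control arrays (exact permutation p = 0.4, two-sided). Between 25 and 28 AB probes were among the 1000 brightest of an array.

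AB probes were brighter than the rest of the array, with a median level of 0.08 over the tested AB probes and -1.02 over all tested probes. All tested probes were split into 4 brightness classes of equal size, and 106 of the 289 AB probes lay in the brightest class and 56 in the dimmest. In the brightest class 61.3% of AB probes were called, against 45.7% of all tested probes. In class 3 it was 55.1%, against 46.2%, in class 2 it was 55.2%, against 45.0%, and in the dimmest class 53.6%, against 33.3%. The higher share of calls among AB probes was thus seen in each class, and this difference was not tested. In the brightest class 37 of the called AB probes were higher and 28 lower, while in class 3 there were 14 higher and 24 lower. Among all tested probes, the brightest class had 2025 called higher and 1270 lower of 7215. Class 3 had 1645 called higher and 1691 lower of 7215. Probes with AF, AY or DQ identifiers, which are also direct submissions, had 59.9% of 421 tested probes called and 29.0% called at 2-fold or more. Those with BP identifiers had a median level of -2.91.

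**Figure D3:**
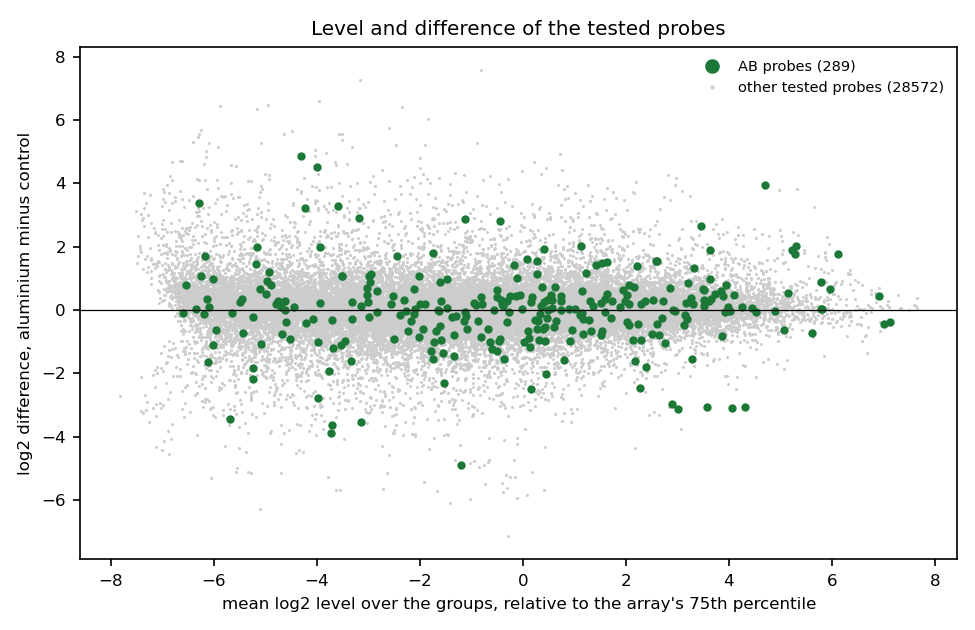
Log2 difference, aluminium minus control, against the mean log2 level over both groups for the 289 tested AB probes (green) and the other 28572 tested probes (grey). The AB probes spread over most of the range of levels with a median of 0.08 and lie on both sides of 0.

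Where an identifier had several probes, they mostly gave the same answer. There were 50 such identifiers, and 43 of them had at least 2 tested probes. All probes were called for 23 identifiers, some for 10 and none for 10, and calls of opposite direction occurred in 0 identifiers. The signs were the same for all probes in 38 of the 43. The difference between the highest and the lowest probe of an identifier had a median of 0.12 (log2), and the first 2 probes of the 43 correlated with r = 0.944 across identifiers. Probes of 1 identifier share the transcript and the arrays, so they are repeat measurements and not replicates.

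Among the identifiers with the largest mean change, AB017025 had probes with log2 differences of -1.93 and -2.30. AB020590, AB505625 and AB213651 were picked as examples of close agreement, outside the rules by which other probes were named. The 3 probes of AB020590 rose by 1.40, 1.49 and 1.52 (log2), the 3 of AB505625 had differences of -1.31, -1.22 and -1.18, and both probes of AB213651 had -1.55. For 4 identifiers the probes differed by more than 1 log2 unit. AB176524 had the widest gap. Its probes A_95_P027721 and A_95_P239709 were at -5.85, -5.38 and -5.79 and at -5.55, -5.35 and -5.70 with aluminium, against -2.13, -1.67 and -1.55 and against -2.22, -1.69 and -1.78 in control cells, which is 14.8-fold and 12.4-fold lower. The third, A_95_P259746, was brighter, at 0.13, 0.07 and 0.10 with aluminium and 0.48, 0.79 and 0.81 in control cells, and fell by 0.59 ± 0.12 on the log2 scale (SE; limma adjusted p = 0.0094). All 3 thus fell, but by different amounts, and the call of the third was lost without both arrays of replicate 3. After normexp correction the first 2 probes had log2 differences of -2.51 and -2.14.

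In AB000623 one probe, A_95_P025216, was at -2.34, -2.52 and -2.44 with aluminium and -1.22, -1.24 and -0.98 in control cells, 2.44-fold lower (limma adjusted p = 0.000402). The other, A_95_P121212, had -2.38, -2.33 and -2.17 with aluminium, against -2.38, -2.21 and -2.17 in control cells, and was not called, with a 95% interval of the difference from -0.30 to 0.23. Only 1 of these probes therefore gives a change for this identifier. In AB126259 the dim probe A_95_P017191 was 3.54-fold lower (limma adjusted p = 0.000176) and the brighter A_95_P127937 1.18-fold lower without passing the test (limma adjusted p = 0.43). With normexp correction the dim probe was no longer called (log2 difference -0.64, limma adjusted p = 0.136). The other such identifier was AB032529, described above.

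**Figure D4:**
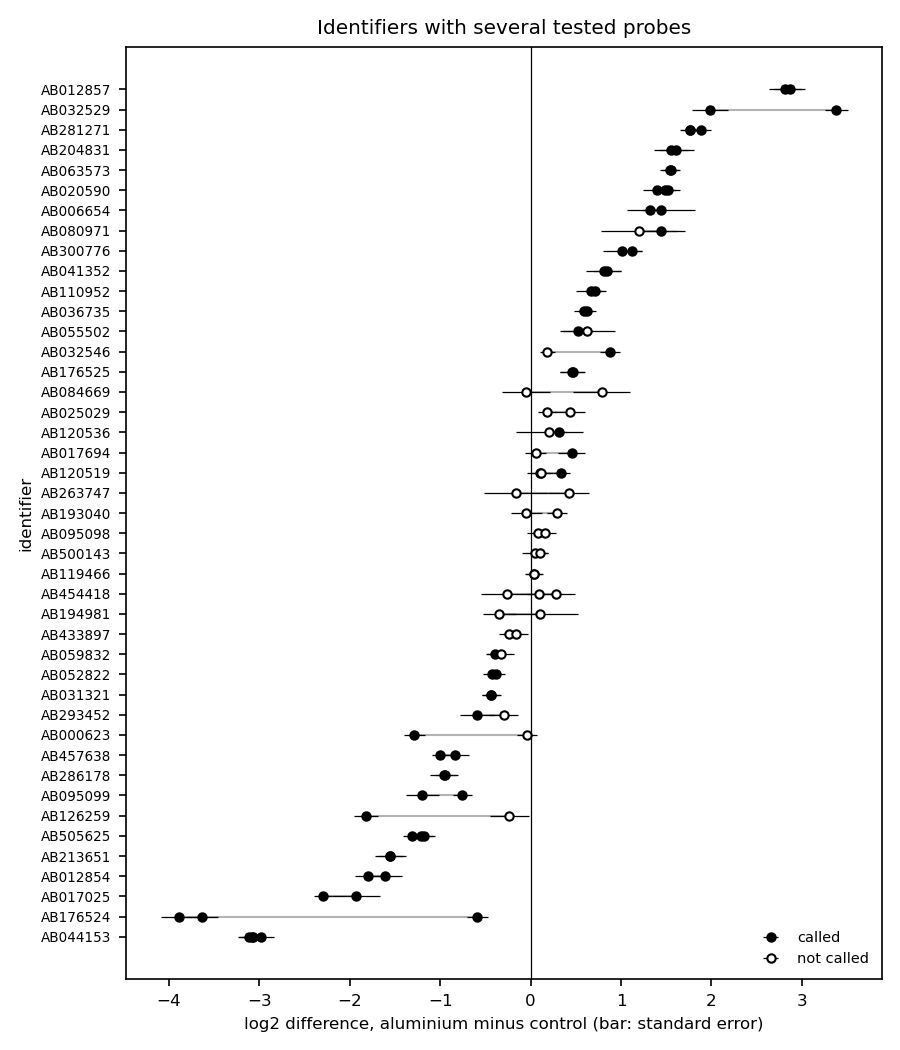
Log2 difference, aluminium minus control, of every tested probe of the 43 AB identifiers with at least 2 tested probes, with its standard error. Filled points were called and open points were not, and a grey line joins the probes of 1 identifier. Most probes of an identifier lie close together, while AB176524, AB126259, AB032529 and AB000623 show gaps of more than 1 log2 unit.

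Successive AB numbers can be given to the records of 1 submission, and calls in both directions occurred within several runs of such numbers. There were 12 runs of at least 3 successive tested identifiers, with 39 identifiers in all. The widest run was AB041514 to AB041516, in which AB041514 (A_95_P250337) had 4.51, 4.52 and 4.70 with aluminium, against 2.60, 2.69 and 2.76 in control cells. AB041515 (A_95_P196072) had 4.02, 4.16 and 4.21 with aluminium, against 3.09, 3.25 and 3.09 in control cells. These 2 rose, 3.72-fold and 1.98-fold, while AB041516 was 8.39-fold lower. The groups did not overlap in any of the 3.

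In the run AB063573 to AB063576, both probes of AB063573 rose, by 2.90-fold and 2.93-fold, and AB063575 rose 2.23-fold. AB063574 fell 1.52-fold (limma adjusted p = 0.0347), and AB063576 had a log2 difference with a 95% interval from -0.29 to 0.28. In AB204829 to AB204831, both probes of AB204831 rose, by 2.93-fold and 3.06-fold, and AB204829 fell 1.32-fold (limma adjusted p = 0.0313). AB204830 was not called (limma adjusted p = 0.269, and 0.0155 with the replicate block). In AB055500 to AB055502, AB055500 and AB055501 fell, 1.96-fold and 1.74-fold. Of the probes of AB055502, A_95_P250107 rose 1.43-fold (limma adjusted p = 0.0467) and A_95_P009036 had a log2 difference of 0.62 (limma adjusted p = 0.15, and 0.00445 with the block).

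The calls of AB063574, AB204829 and A_95_P250107 were close to the threshold and were lost when 1 of several arrays was left out, with differences of the same sign. The call of AB063574 was lost without aluminium replicate 2 or 3 or control replicate 1 or 2 (log2 difference -0.73 to -0.46). That of AB204829 was lost without aluminium replicate 2 or 3 or control replicate 1 or 3 (-0.47 to -0.34), and that of A_95_P250107 when any array other than control replicate 1 was left out (0.42 to 0.66).

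In AB286176 to AB286178, both probes of AB286178 fell, 1.94-fold and 1.92-fold (limma adjusted p = 0.00365 and 0.00137). AB286176 and AB286177 had log2 differences of 0.38 and -0.47, which were not called (limma adjusted p = 0.0819 and 0.111) and passed the test with the replicate block (limma adjusted p = 0.00854 and 0.00505). AB017967 fell 2.89-fold (limma adjusted p = 0.00104), at 2.60, 2.56 and 2.39 with aluminium against 4.40, 3.80 and 3.94 in control cells. Its neighbours AB017966 and AB017968 varied between slides, as given below.

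The 124 AB probes that were not called include transcripts whose difference was bounded closely. For 96 of them the 95% interval of the difference lay within 2-fold in either direction, and for 58 within 1.5-fold. The 5 with intervals nearest to 0 were AB049816, AB025713, AB119466, AB050837 and AB087677. AB119466 (A_95_P251777) was bright, at 5.86, 5.77 and 5.78 with aluminium and 5.76, 5.79 and 5.74 in control cells, with an interval from -0.17 to 0.25. AB087677 (A_95_P021341) had 4.84, 4.87 and 4.95 with aluminium and 4.99, 4.83 and 4.93 in control cells, with an interval from -0.26 to 0.20. For these transcripts a change of 1.5-fold or more lay outside the interval. With the replicate number as a block, 43 of the 124 passed the test and 81 did not, and none of the 165 lost its call. That fit called 208 AB probes (72.0%, against 65.0% of all tested probes), of which 82 reached 2-fold (17.2% of all tested probes).

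For 2 of the uncalled probes the measured difference was still at least 2-fold. AB091430 (A_95_P222378) had -3.54, -1.57 and -3.78 with aluminium, against -4.30, -3.55 and -4.28 in control cells, and aluminium replicate 2 stood apart (limma adjusted p = 0.206). AB080971 (A_95_P032441) had -4.38, -4.19 and -4.41 with aluminium, against -5.15, -4.89 and -6.54 in control cells, where replicate 3 was low and not all arrays were well above background (limma adjusted p = 0.0645). The other probe of AB080971, A_95_P238819, had a measured difference of 2.71-fold and was well above background on 2 of the 3 control arrays. With normexp correction its log2 difference was 0.71. With the block, both uncalled probes passed the test (limma adjusted p = 0.0404 and 0.0313). Both probes of AB080971 passed the filter through the aluminium arrays alone, so their common direction was fixed in part by the filter. For this reason no p is given for A_95_P238819, and the p-values of A_95_P032441 carry the same limit.

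A small group of AB transcripts differed far more between the replicate pairs than between the treatments. In 7 of the 289 tested probes (2.42%, against 1.41% of all tested probes) both arrays of replicate 2 were at least 2-fold above all other arrays. For replicates 1 and 3 there were 0 such AB probes (0.0139% and 0.00693% of all tested probes). AB501123 (A_95_P143422) was the most extreme, with -4.98, -1.46 and -6.19 in aluminium replicates 1, 2 and 3 and -4.62, -1.06 and -6.12 in control replicates 1, 2 and 3. Its replicate 2 arrays were thus 18.65-fold above the mean of the others, averaged over both groups, and its arrays of replicate 3 were at least 2-fold below all others (1 AB probe, 0.346%, against 0.482% of all tested probes). AB017966 (A_95_P032331) had -5.13, -2.62 and -5.71 with aluminium and -5.38, -2.85 and -6.04 in control cells.

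The other 5 were AB077051, AB180675, AB024510, AB017968 and AB120522, between 3.20-fold and 4.42-fold above the mean of the other replicates. The 7 were chosen after their values were seen. For none of them did the treatment pass the test without the block (limma adjusted p between 0.811 and 0.996), and their standard errors of 0.65 to 1.67 (log2) were far above the median of 0.14 over the AB probes. With the block, AB017966, AB024510 and AB077051 passed (limma adjusted p = 0.0162, 0.0198 and 0.0307), with log2 differences of 0.27, 0.27 and 0.26. Replicate number and slide coincide, so a difference between cultures and one between slides cannot be told apart here.

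AB079023 showed both patterns in a single identifier. Its probe A_95_P011651 was bright and was not called, at 3.98, 3.80 and 3.94 with aluminium and 3.98, 3.92 and 3.98 in control cells (limma adjusted p = 0.676). The other probe, A_95_P181947, was at -6.40, -0.79 and -8.93 with aluminium and -6.52, -0.54 and -6.67 in control cells. It was well above background on 2 of 3 arrays in each group and so did not enter the test. Only its replicate 2 arrays were far from the dim end of the array.

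**Figure D5:**
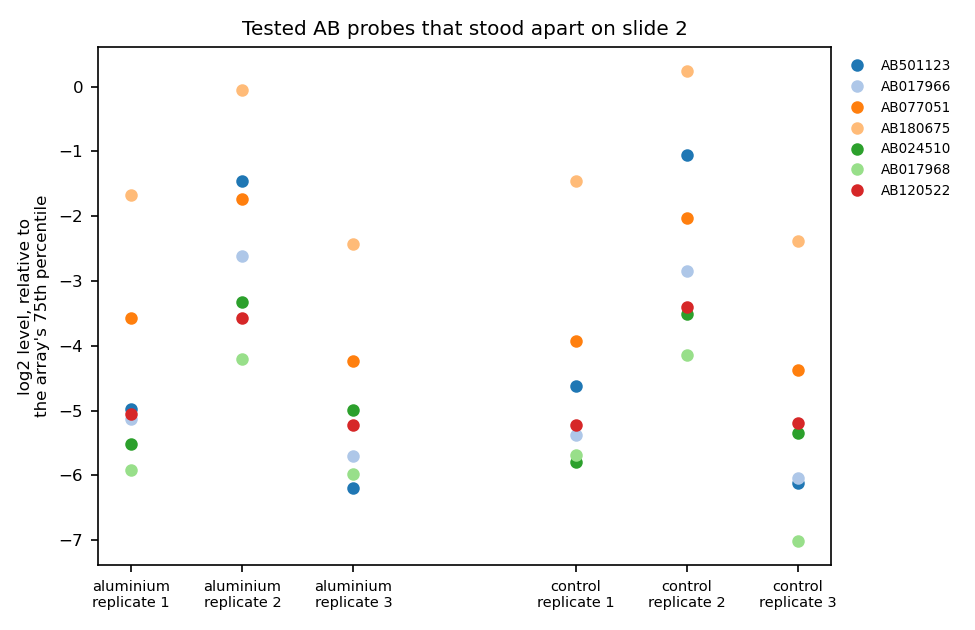
Log2 level relative to the array's 75th percentile of the 7 tested AB probes whose replicate 2 arrays were at least 2-fold above all others, with the 3 aluminium samples on the left and the 3 control samples on the right. Each colour is 1 identifier. Replicate 2 is highest in both groups for every probe.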

How the data were processed

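The labels' protocols give RNA extraction, cDNA synthesis from 200 ng of total RNA and Cy3 labelling. Per the file headers, the authors' array files came from Agilent Feature Extraction 11.5.1.1. The intensity deposited by the authors is the processed signal, with statistics of background subtraction and spatial detrending in the headers. It was not scaled between arrays. The normexp alternative used the deposited spot and background median intensities. A value table of the whole series holds log2 values deposited by the authors, whose scale, centring and direction are unstated. Compared with the arrays, it matched the log2 levels used here after subtraction of the probe's median, to a median of at most 0.00122. Its column medians were 0.054, -0.026 and 0.00072 for aluminium replicates 1 to 3 and -0.016, 0.0042 and -0.012 for control.

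Of 45220 spots, 1417 control spots and at most 16 outlier spots per array were left out. Log2 signals were averaged per probe and the array's 75th percentile was subtracted. Probes well above background on all 3 arrays of either group (28861) were fitted by limma 3.58.1 (R 4.3.3) with no block, as the difference of aluminium from control. An adjusted p under 0.05 was called. The test was checked on simulated data. Folds are antilogs of log2 differences.

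Replicate numbers and slides coincide. Arrays of the same number deviated together from their groups (r = 0.615, 0.798 and 0.711 across probes), so the numbers were taken to pair them in the fits with a block. The reported test had no block, as the labels name none. Its calls, uncalled probes and intervals therefore leave this pairing out. The median standard error over AB probes was 0.142 without the block and 0.0754 with it.

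The AB probes and tests were chosen with earlier results of these data known. Probes were named if they were among the 12 highest or 12 lowest called differences of probes well above background on all 6 arrays. Also named were probes detected in 1 group only, the 5 brightest, and the 5 uncalled with intervals nearest 0. The leading identifiers with several probes or runs of numbers were named as well. Other probes were named after their values were seen, among them those of AB000623, AB126259, AB079023, AB080971 and AB091430. AB020590, AB505625 and AB213651 also lay outside these rules. Probe sequences were not used here.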

Additional observations from a re-analysis of the deposited data

How the results depend on the processing

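The counts of 165 called AB probes and 80 called at 2-fold stayed within 1.5 times, at 125 to 208 and 58 to 88, under every alternative run except spike-in scaling without the block, which gave 47 for both. Spike-in scaling without the block called 16.3% of AB probes, against 7.76% of all tested probes, with or without the 2-fold limit. With that scaling the median standard error over AB probes was 0.549, against 0.142. With the replicate block as well it was 0.265, and 133 AB probes were called (46.0%, against 32.8% of all tested probes), 88 at 2-fold. Of all 28861 tested probes, 5047 were called at 2-fold by that fit. That scaling moved the median difference of all tested probes to -0.08, against 0.07. With the replicate block alone 208 AB probes were called (72.0%, against 65.0% of all tested probes) and 82 at 2-fold. It ended no call of an AB probe and added 43, among them the uncalled probes for which a blocked p is given above. With each array omitted in turn, the called AB probes numbered 132 to 150, and 76 to 84 at 2-fold. The called shares were 45.7% to 51.9%, against 32.4% to 36.3% of all tested probes. Signs changed for 0 AB probes that passed in both the reported test and an alternative. Of the 165, 110 kept their call under each of 14 alternatives (all but those with spike-in scaling, without replicate 3, with 1 probe per identifier or with the stricter filter). The 24 probes with the highest and lowest differences kept their call in all 474 alternative values. Under 1 probe per identifier, 18 of the 24 were tested. For 77 of the tested probes named there were 1515 alternative values, of which 73 lost and 30 gained a call and 0 were reversed with a call. These 77 leave out A_95_P238819 and the probes of AB020590, AB505625 and AB213651. Normexp used spot medians in place of means. The control array of replicate 3, with 62.1% of probes well above background, limits the dim probes most.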
